A study of Mus musculus with 20 samples.

Results

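Nuclear receptors are transcription factors whose activity is set by small lipid-soluble ligands, and coregulators are the proteins they recruit to raise or lower transcription. This account describes 39 genes of this system in mouse liver, 32 nuclear receptors and 7 coregulators, out of 55487 genes in the count table. They were taken from a list of gene symbols. No measured value entered the rule, but the list was chosen with earlier results of these data known. All 39 were found in the counts and in the deposited TPM table. RNA-seq libraries were made from liver tissue of female C57BL/6N mice, 15 weeks old, in 4 groups of 5 libraries. The groups were Plin2-null mice fasted for 24 h, Plin2+/+ mice fasted for 24 h, fed Plin2-null mice and fed Plin2+/+ mice, all kept on chow. PLIN2, or perilipin 2, sits on the surface of lipid droplets in the cytosol. The labels of 10 libraries give only the feeding state. Their genotype was taken as Plin2-/- by elimination, since the design names no other, and they are called Plin2-null. No label ties a library to a litter, a day or a batch, and the p-values reflect only how far these samples spread.

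Most members work as dimers. PPARs, RARs, the thyroid hormone receptors, CAR (Nr1i3), PXR (Nr1i2) and VDR pair with a retinoid X receptor (RXR) on DNA repeats related to AGGTCA, while steroid receptors such as GR (Nr3c1) and ERα (Esr1) form homodimers. In liver, PPARα (Ppara) is known as the sensor of fatty acids that drives fat oxidation in fasting, GR as the mediator of glucocorticoids in gluconeogenesis, HNF4α (Hnf4a) as a factor of hepatocyte identity, and CAR and PXR as sensors of drugs and bile acids. Coactivators such as PGC-1β (Ppargc1b), the p160 proteins (Ncoa1, Ncoa2, Ncoa3) and the Mediator subunit MED1 link receptors to transcription, NCoR1 (Ncor1) represses it, and RIP140 (Nrip1) is known mainly as a repressor.

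Total counts per library ran from 25506471 to 65579038. The deleted gene, as a check of the labels, was at 78.0, 85.3, 83.7, 75.1 and 130.3 CPM in fasted Plin2-null livers and 1482, 1092, 1695, 1543 and 1653 CPM in fasted Plin2+/+ livers. CPM here are counts divided by a TMM-scaled library size, which sets the bulk of genes equal between libraries. In fed mice Plin2 was at 32.1, 15.3, 16.8, 17.8 and 16.6 CPM in Plin2-null and 309.7, 274, 203, 196 and 319 CPM in Plin2+/+ livers, so every library stood with its group. An 18S rRNA-like transcript took 6.16 to 24.8% of the counts of fasted Plin2-null libraries, 4.87 to 14.2% in fasted Plin2+/+, 5.54 to 12.0% in fed Plin2-null and 5.13 to 14.2% in fed Plin2+/+ libraries. In a principal component analysis of the 38 members that could be tested, the leading axis carried 41.8% of the variance, and fasted libraries scored 0.894 to 3.94 and fed libraries -2.27 to -1.51. The highest score was that of Plin2-null fasted replicate 1, a library described further with the NR4A receptors. Markers of hepatocytes summed to 84539 to 163099 CPM over all libraries, with overlap between groups and none of 9 at 0. Cholangiocyte markers summed to 26.1 to 36.1 CPM in fasted and 42.7 to 58.9 CPM in fed Plin2-null livers, and to 19.2 to 32.1 and 44.5 to 61.7 CPM in fasted and fed Plin2+/+ livers. None of the 6 tested of 8 rose, and 1 fell in Plin2-null and 4 in Plin2+/+ mice. Kupffer cell and macrophage markers summed to 499 to 612 CPM in fasted and 488 to 1108 CPM in fed Plin2-null livers, and to 386 to 633 and 602 to 800.2 CPM in fasted and fed Plin2+/+ livers; 1 of 13 rose in each genotype, and 6 fell in Plin2-null and 9 in Plin2+/+ mice. Lymphocyte markers summed to 5.67 to 7.83 CPM in fasted and 6.55 to 9.43 CPM in fed Plin2-null livers, and to 4.28 to 6.08 and 8.53 to 10.8 CPM in fasted and fed Plin2+/+ livers; of 12, none rose and 1 fell in Plin2-null mice, and 1 rose and 6 fell in Plin2+/+ mice. Both tested of 8 pancreatic acinar markers fell in each genotype. In bulk tissue, fewer cells of a type and less RNA per cell cannot be told apart, and the part of cell composition in the member results was not tested.

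Promoter sequence was read from RefSeq windows of GRCm38.p6, 250 bases upstream of each annotated start, which matched 33 of the 39 members with 53 windows. Hnf4g, Nr3c1, Thra, Ncoa2, Ncoa3 and Ppargc1b had no match. Searched on both strands, the receptor hexamer AGGTCA occurred in 15.1% of the member windows, in 7 members, and in 14.0% of 32851 windows of all genes. The direct repeat AGGTCANAGGTCA, the layout bound by PPAR-RXR and HNF4α dimers, was in none of them and in 0.0335% of all windows. The cyclic AMP response core TGACG, which reads CGTCA on the other strand, was in 18.9% of member windows and 17.8% of all. The 3 member windows with at least 4 matches were those of Nr4a1, Nr4a2 and Nr4a3, while 0.137% of all windows reached 4. The full palindrome TGACGTCA, which contains that core, was in no member window and in 1.55% of all windows. A match is a string of letters, not evidence of binding. The sequences below are those of the PPAR genes that moved in opposite directions on fasting, of the only member called between genotypes, and of the NR4A genes. They are written 5′ to 3′ on the gene's strand and end at the base before the start. Capitals mark TGACG or CGTCA in the PPAR and NR4A windows and AGGTCA in that of Rxrg. For Rxrg any window without AGGTCA was left out, so the match there was a condition of printing.
Ppara, chr15:85735526-85735775, plus strand: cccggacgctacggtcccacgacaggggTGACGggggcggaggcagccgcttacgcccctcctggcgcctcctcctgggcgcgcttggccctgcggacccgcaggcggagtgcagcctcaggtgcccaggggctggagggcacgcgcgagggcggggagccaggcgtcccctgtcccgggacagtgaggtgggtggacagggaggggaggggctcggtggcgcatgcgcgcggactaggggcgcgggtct
Ppard, chr17:28232504-28232753, plus strand: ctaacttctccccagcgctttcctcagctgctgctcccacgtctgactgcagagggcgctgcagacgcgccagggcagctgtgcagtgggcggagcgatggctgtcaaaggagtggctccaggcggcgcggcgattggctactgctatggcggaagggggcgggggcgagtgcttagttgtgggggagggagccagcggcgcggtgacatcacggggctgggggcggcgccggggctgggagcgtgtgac
Rxrg, chr1:167618015-167618264, plus strand: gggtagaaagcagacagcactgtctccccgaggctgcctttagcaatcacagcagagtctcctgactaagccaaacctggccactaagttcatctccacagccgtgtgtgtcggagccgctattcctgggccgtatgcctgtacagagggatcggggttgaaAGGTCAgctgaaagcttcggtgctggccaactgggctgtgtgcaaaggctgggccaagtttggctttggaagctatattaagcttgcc
Nr4a1, chr15:101266596-101266845, plus strand: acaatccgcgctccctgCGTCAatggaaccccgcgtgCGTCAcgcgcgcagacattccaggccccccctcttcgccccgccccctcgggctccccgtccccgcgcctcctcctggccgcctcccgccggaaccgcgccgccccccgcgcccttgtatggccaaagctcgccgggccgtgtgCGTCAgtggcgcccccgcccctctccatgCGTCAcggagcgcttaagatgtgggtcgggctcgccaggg
Nr4a2, chr2:57124004-57124253, minus strand: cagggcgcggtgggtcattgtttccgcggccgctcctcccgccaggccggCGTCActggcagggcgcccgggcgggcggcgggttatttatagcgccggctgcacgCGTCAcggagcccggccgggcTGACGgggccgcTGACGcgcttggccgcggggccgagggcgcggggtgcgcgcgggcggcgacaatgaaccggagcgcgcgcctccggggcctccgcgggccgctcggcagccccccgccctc
Nr4a3, chr4:48045055-48045304, plus strand: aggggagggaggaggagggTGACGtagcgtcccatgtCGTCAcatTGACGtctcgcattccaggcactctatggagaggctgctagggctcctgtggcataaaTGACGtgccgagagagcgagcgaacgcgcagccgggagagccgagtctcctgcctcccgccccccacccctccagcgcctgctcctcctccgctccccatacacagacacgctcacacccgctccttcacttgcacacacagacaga
The match in Ppara lay 217 bases and that in Rxrg 82 bases before the start. In Nr4a1 the matches lay 35 to 228, in Nr4a2 106 to 195 and in Nr4a3 142 to 226 bases before it, and Ppard had none. The RefSeq starts of Ppara, Ppard, Rxrg, Nr4a1 and Nr4a3 used here lie inside the gene spans of GENCODE M21 given with those genes, so they are not the most upstream starts.

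Levels were compared between genes on the TPM scale, which divides by gene length. Over all 20 libraries Hnf4a was highest at 342 ± 69.6 TPM (SD, n = 20), followed by Nr1i3 at 255 ± 80.97, Rxra at 149 ± 31.5, Ppara at 105 ± 41.1 and Nr1i2 at 90.8 ± 20.96. Neighbours in this order overlapped within their spread. A step down followed, to Nr5a2 (LRH-1) at 25.7 ± 5.23, Nr3c1 at 25.5 ± 7.27, Rora at 24.4 ± 6.76 and Ncor1 at 23.9 ± 5.02 TPM, which overlapped within their spread. This spread pools fed and fasted libraries, and genes were not compared within libraries. Ncor1 was the highest of the 7 coregulators, and Ppargc1b the lowest at 2.47 ± 1.53 TPM. At the low end stood Hnf4g at 0.384 ± 0.250, Nr4a2 at 0.291 ± 0.179, Nr2f1 at 0.277 ± 0.0754, Nr4a3 at 0.0872 ± 0.0871 and Vdr, the vitamin D receptor, at 0.0409 ± 0.0338 TPM. Vdr had 0 to 10 counts per library and was not tested, which left 38 members among 16312 genes tested.

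Fasting for 24 h changed 15 of the 38 members in Plin2-null livers, 9 higher and 6 lower, by edgeR's quasi-likelihood test at an adjusted p under 0.05. Of all genes tested 36.1% were called, 18.0% higher and 18.1% lower, so the members changed about as often as genes in general. In Plin2+/+ livers 19 were called, 9 higher and 10 lower, against 42.6% of all genes, 20.9% higher and 21.7% lower. The members' median log2 fold change was 0.04 in Plin2-null and -0.05 in Plin2+/+ livers, where all genes had a median of -0.01 in both. Between fasted and fed libraries, 7 members did not overlap in Plin2-null and 8 in Plin2+/+ mice, where 24.5% and 26.7% of all genes tested did not. Both genotypes shared 10 calls, 5 higher and 5 lower, which is 26.3% of the members against 25.8% of all genes tested, a share near the background. The members higher in both were Ppara, Nr1i2, Nr1i3, Ncor1 and Ppargc1b, and those lower in both were Ppard, Esr1, Nr3c1, Nr2f2 and Ncoa3. In sign alone, 33 of 38 members (86.8%) and 76.8% of all genes moved the same way in both genotypes.

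The calls of higher members depend on the scaling. With library size alone in place of TMM, the median over all genes moved to -0.21 in Plin2-null and -0.16 in Plin2+/+ mice, and higher genes made up 24.5% and 30.8% of all called genes, against 49.9% and 49.1% with TMM. Member calls were then 3 higher and 12 lower in Plin2-null mice and 3 higher and 10 lower in Plin2+/+ mice. On log2(TPM + 1) with limma, 18.2% and 30.2% of called genes were higher, and member calls were 1 higher and 12 lower in Plin2-null and 2 higher and 10 lower in Plin2+/+ mice. In Plin2-null mice the calls of Ppara, Pparg, Nr1i3, Rxrg, Esrra and Ncor1 ended with library size alone and with limma on TPM, and those of Nr1i2 and Nr4a1 with TPM. Instead Rarb, Rarg, Thrb, Nr2f6, Nr5a2 and Nr6a1 were called lower in Plin2-null mice in both settings. In Plin2+/+ mice the calls of Hnf4a, Nr1i2, Nr2c2, Rora, Ncor1 and Med1 ended in both, and that of Ppargc1b with TPM at a pseudocount of 1. With no filter on low counts the Plin2-null calls of Esrra, Rxrg, Ncor1 and Ncoa2 ended (largest adjusted p = 0.105), and that of Rora in Plin2+/+ mice ended with either other filter and in a fit of the compared groups alone (largest adjusted p = 0.0598). Calls that held in all 9 other settings and with each library left out were those of Ppargc1b, Ppard, Esr1, Nr3c1, Nr2f2 and Ncoa3 in Plin2-null mice. In Plin2+/+ mice they were those of Ppara, Nr1i3, Ppard, Rara, Rarb, Rarg, Esr1, Nr3c1, Nr2f2 and Ncoa3.

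**Figure D1:**
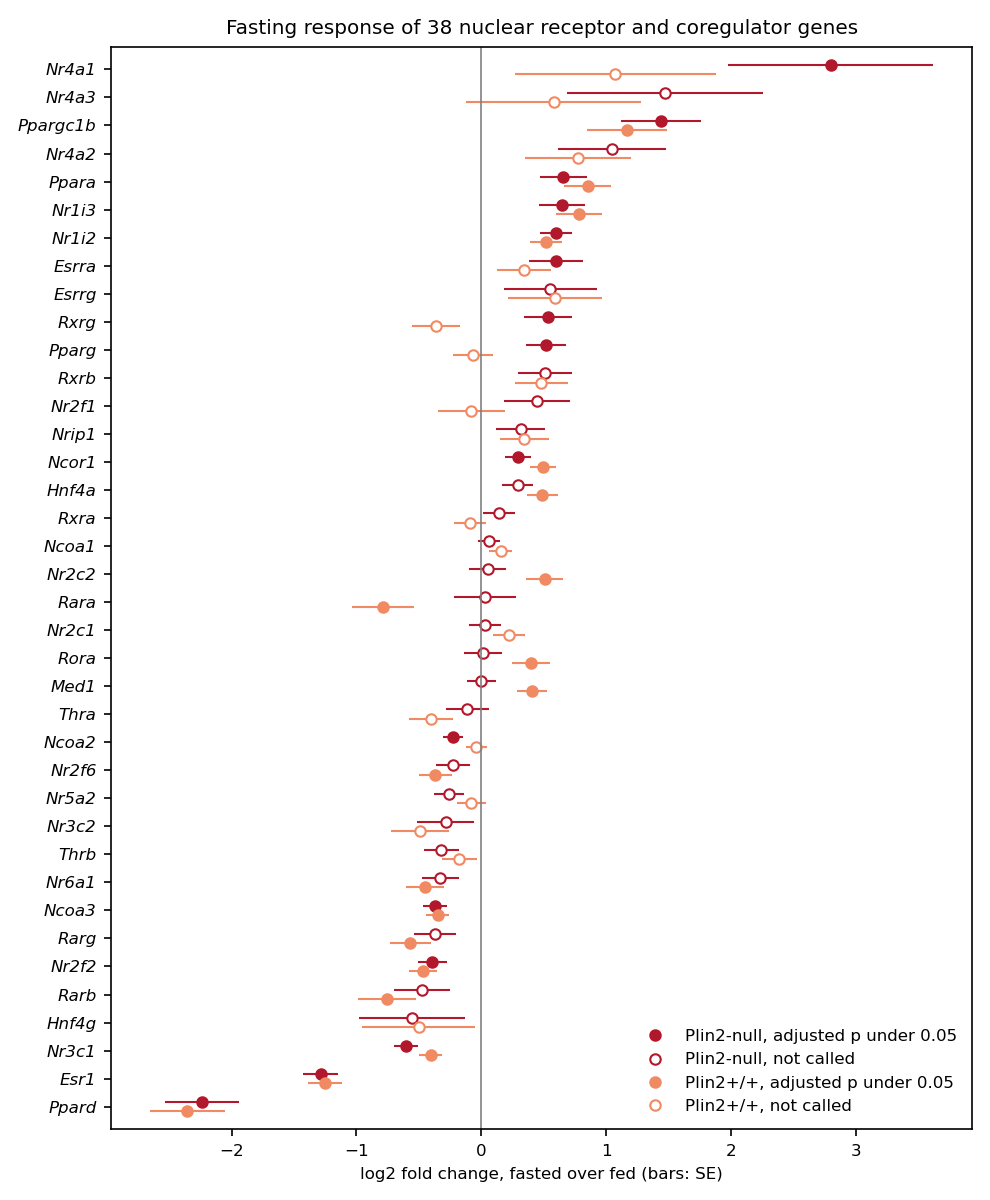
Fasting response of 38 members in both genotypes, as the log2 fold change of fasted over fed livers on the x axis with its SE as bars, for 5 against 5 libraries. Filled points have an adjusted p under 0.05; Ppard is lowest in both genotypes, and Nr4a1 is highest in Plin2-null livers, with wide errors.

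Among the PPARs, Ppara rose and Ppard fell in both genotypes. Ppara (ENSMUSG00000022383; chr15:85734983-85802819, plus strand in GENCODE M21, GRCm38) was at 162, 158, 151, 278 and 201 CPM in fasted and 171, 102, 98.5, 95.2 and 137 CPM in fed Plin2-null livers. In Plin2+/+ mice it was at 285, 183, 149.7, 213 and 219 CPM in fasted and 123, 125, 108, 98.8 and 127 CPM in fed livers. Fasted and fed values overlapped in Plin2-null mice (0.65 ± 0.19 SE, adjusted p = 0.00947; log2 fold changes and SE here and below) and did not in Plin2+/+ mice (0.85 ± 0.19 SE, adjusted p = 0.00101). Ppard (ENSMUSG00000002250; chr17:28232700-28301474, plus strand), the broadly expressed PPARδ, was at 5.16, 4.06, 4.66, 8.30 and 5.30 CPM in fasted and 41.4, 21.6, 21.9, 18.6 and 26.7 CPM in fed Plin2-null livers. In Plin2+/+ mice its values were 3.25, 3.17, 4.42, 4.28 and 6.79 CPM in fasted and 22.0, 29.9, 24.7, 25.8 and 9.60 CPM in fed livers. No fasted library reached a fed one in either genotype, and no other member fell as far (-2.24 ± 0.29 SE, adjusted p = 7.04e-06 in Plin2-null mice, and -2.35 ± 0.30 SE, adjusted p = 3.35e-06 in Plin2+/+ mice). Pparg, the adipogenic PPARγ, was at 5.98, 6.26, 5.05, 4.15 and 5.69 CPM in fasted and 2.96, 4.85, 3.73, 3.58 and 3.78 CPM in fed Plin2-null livers and rose there (0.52 ± 0.16 SE, adjusted p = 0.0148), with overlapping groups. In Plin2+/+ livers Pparg ranged over 3.69 to 5.78 CPM in fasted and 4.31 to 6.45 CPM in fed mice (-0.07 ± 0.16 SE, adjusted p = 0.758).

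**Figure D2:**
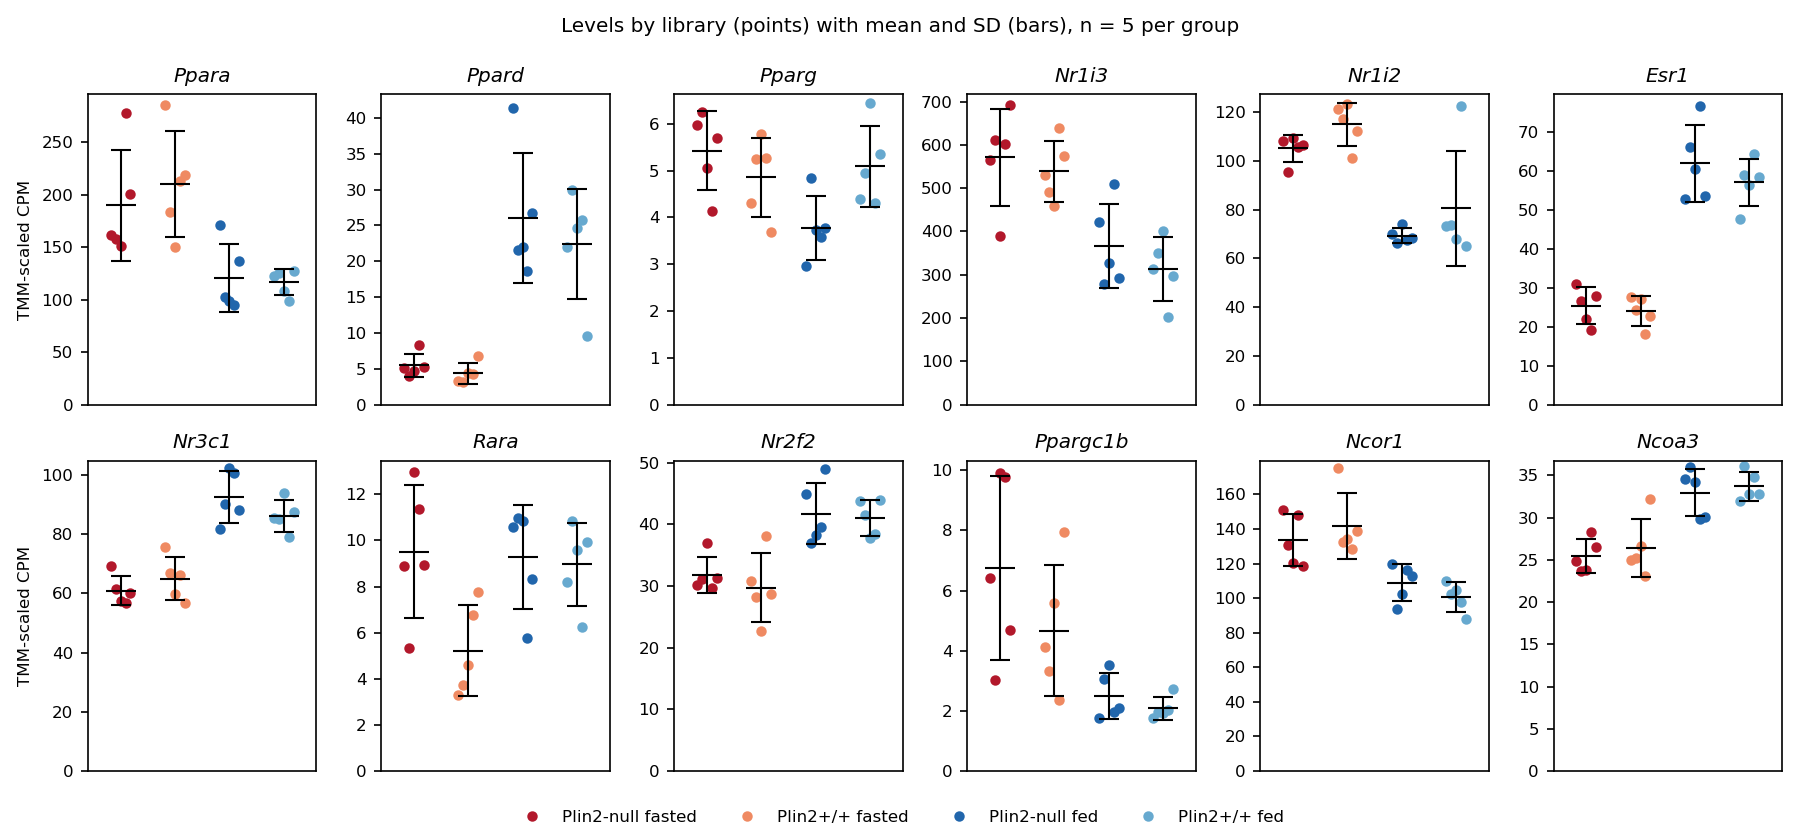
TMM-scaled CPM of 12 members on a linear y axis, 1 point per library, with the mean and SD of 5 libraries as bars. From left to right the groups are Plin2-null fasted, Plin2+/+ fasted, Plin2-null fed and Plin2+/+ fed; fasted and fed points of Ppard, Esr1 and Nr3c1 do not overlap in either genotype.

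Most of the listed target genes of PPARα rose with fasting in both genotypes. Of 29 targets 28 rose and none fell in Plin2-null livers, and 28 rose and none fell in Plin2+/+ livers, with median log2 fold changes of 1.95 and 1.75. Of all genes tested 18.0% and 20.9% were called higher. The gene lists here and below were chosen with earlier results of these data known. Their counts describe the lists and are no test of receptor activity. The count of rising targets was 27 in each genotype with library size alone. Ehhadh, a peroxisomal oxidation enzyme, changed by 4.26 ± 0.19 in Plin2-null and 3.54 ± 0.18 in Plin2+/+ livers, and Pex11a, a peroxisome division protein, by 3.10 ± 0.15 and 2.69 ± 0.15. Between genotypes none of the 29 was called in fasted or fed mice.

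The make-up of a family does not depend on how libraries are scaled. Ppara made up 94.8 ± 1.14% of PPAR TPM in fasted and 86.8 ± 1.01% in fed Plin2-null livers (SD, n = 5 each; exact two-sided permutation p = 0.00794). In Plin2+/+ livers its share was 95.9 ± 1.32% in fasted and 86.5 ± 3.22% in fed mice (exact permutation p = 0.00794). The share of Ppard was 1.401 ± 0.134% in fasted and 9.45 ± 0.863% in fed Plin2-null livers, and 1.07 ± 0.400% and 8.58 ± 3.05% in fasted and fed Plin2+/+ livers (exact permutation p = 0.00794 each). Of the p160 coactivators, Ncoa3 made up 38.6 ± 1.68% in fasted and 43.3 ± 1.93% in fed Plin2-null livers (exact permutation p = 0.0159), and 38.4 ± 2.98% and 45.3 ± 1.21% in fasted and fed Plin2+/+ livers (exact permutation p = 0.00794). Rxra held 86.7 ± 1.71% of RXR TPM in fasted and 89.5 ± 0.737% in fed Plin2-null livers (exact permutation p = 0.0159), and 86.6 ± 2.70% and 89.5 ± 0.582% in fasted and fed Plin2+/+ livers (exact permutation p = 0.0238). Over the 84 share tests, 21 shares in 4 comparisons, the smallest adjusted p was 0.121 and none passed 0.05. The smallest exact p that 5 against 5 libraries allow is 0.00794. Over 84 tests, a share at that floor on its own cannot pass 0.05 after adjustment. The lack of calls therefore does not show that the shares were unchanged.

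**Figure D3:**
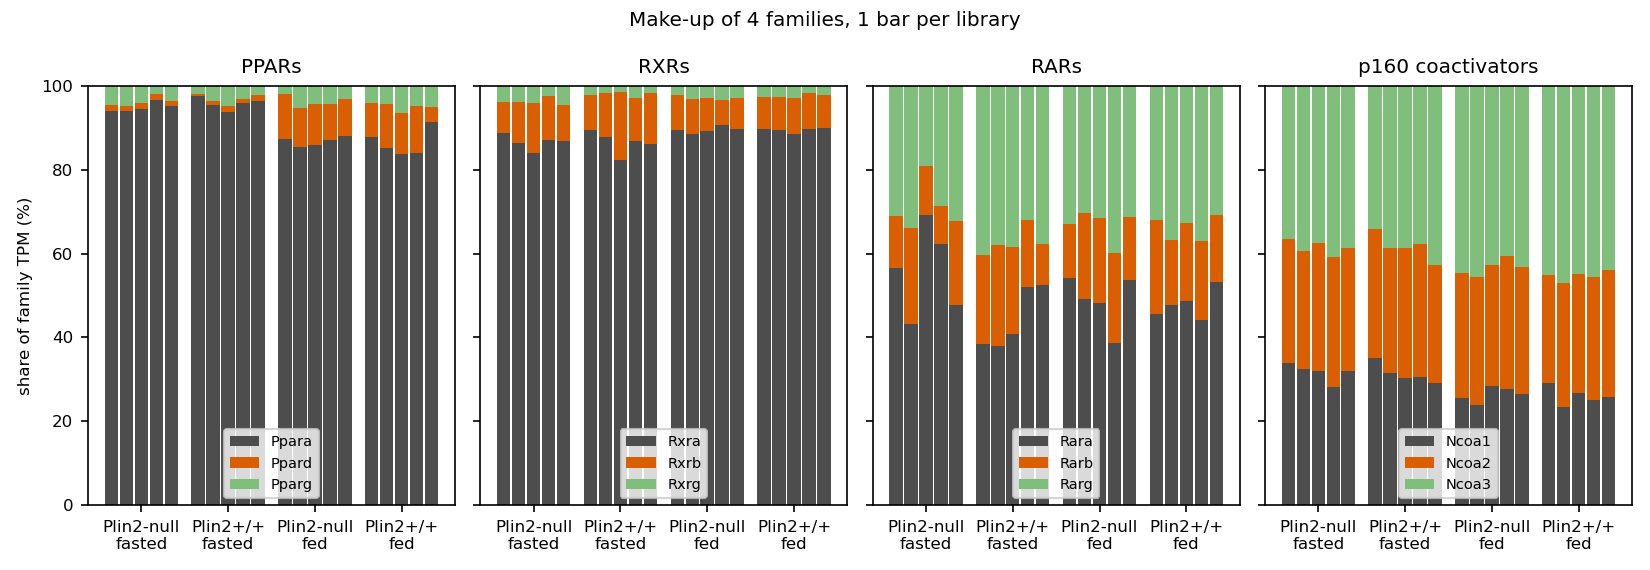
Share of each gene in the TPM of its family on the y axis (%), 1 bar per library, grouped from left to right as Plin2-null fasted, Plin2+/+ fasted, Plin2-null fed and Plin2+/+ fed. The Ppard part of the PPAR bars averages 1.401 and 1.07% in the fasted groups and 9.45 and 8.58% in the fed groups.

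Of the retinoid X receptors, Rxrg (RXRγ; ENSMUSG00000015843; chr1:167598384-167639623, plus strand) was the member that differed between genotypes in fasted mice. Its CPM values were 6.64, 6.03, 6.02, 4.68 and 7.53 in fasted Plin2-null and 2.48, 1.84, 2.09, 4.28 and 3.20 in fasted Plin2+/+ livers. Every Plin2-null value lay above every Plin2+/+ value (1.17 ± 0.19 SE, adjusted p = 0.00626), and the call held without each of 10 libraries (1.04 to 1.36). In fed mice Rxrg was at 3.90, 4.45, 4.59, 4.36 and 4.04 CPM in Plin2-null and 3.27, 4.30, 3.82, 2.51 and 3.75 CPM in Plin2+/+ livers, which overlapped (0.27 ± 0.19 SE, adjusted p = 1.00). On fasting it rose in Plin2-null mice (0.53 ± 0.19 SE, adjusted p = 0.0313), without overlap, and was not called in Plin2+/+ mice (-0.36 ± 0.19 SE, adjusted p = 0.138). That rise ended without each of 5 libraries in turn, Plin2-null fed replicates 1 and 5 and Plin2-null fasted replicates 1, 3 and 5, with a largest adjusted p of 0.0883. Without Plin2+/+ fasted replicate 4, Rxrg was called lower on fasting in Plin2+/+ mice (-0.56, adjusted p = 0.0168). The difference between the responses was 0.90 ± 0.27 SE, adjusted p = 0.239, so a change of the genotype difference with fasting is not shown. As a share of RXR TPM, Rxrg was at 3.70 ± 0.814% in fasted Plin2-null and 1.94 ± 0.605% in fasted Plin2+/+ livers (exact permutation p = 0.0159). Neutrophil and monocyte markers also differed between these groups, with sums of 10.5 to 13.8 CPM in fasted Plin2-null and 5.96 to 8.30 CPM in fasted Plin2+/+ livers. Of 6 tested of 8, 2 were called higher in Plin2-null (S100a9 and S100a8) and none lower, Mpo and Ly6g being at 0 in every fasted Plin2+/+ library; their median log2 fold change was 0.77. Between the same groups 2 of 13 stellate cell markers and 1 of 12 lymphocyte markers were called higher and 1 of 9 hepatocyte markers lower. None of 13 Kupffer cell and macrophage, 12 sinusoidal endothelial, 6 cholangiocyte or 2 acinar markers was called, and the cholangiocyte markers had a median of 0.56. The part of these markers in the Rxrg value was not tested. Rxra, the main hepatic isotype, was at 344 to 484 CPM in fasted Plin2-null and 272 to 432 CPM in fasted Plin2+/+ livers and was called in no comparison. Rxrb was not called either, with changes on fasting of 0.51 ± 0.21 SE, adjusted p = 0.0672 in Plin2-null, and 0.48 ± 0.21 SE, adjusted p = 0.0758 in Plin2+/+ livers. It was called higher in Plin2-null mice in a fit of the compared groups alone (0.50, adjusted p = 0.0352) and without fed replicate 1 (adjusted p = 0.0346). In Plin2+/+ mice it was called higher with each library's trend with GC content removed (0.71, adjusted p = 0.0003005), without fasted replicate 1 (adjusted p = 0.0203) and without fasted replicate 2 (adjusted p = 0.0433).

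All 3 retinoic acid receptors fell on fasting in Plin2+/+ livers. In Plin2-null livers none was called over all libraries with TMM scaling and no further correction, while Rarb and Rarg were called lower in the other settings given here and above. Rara was at 8.91, 5.35, 13.0, 11.4 and 8.95 CPM in fasted and 10.6, 11.0, 10.8, 5.75 and 8.33 CPM in fed Plin2-null livers (0.03 ± 0.25 SE, adjusted p = 0.938). In Plin2+/+ livers it was at 3.28, 3.72, 4.60, 6.77 and 7.77 CPM in fasted and 8.20, 10.8, 9.58, 6.24 and 9.94 CPM in fed mice (-0.79 ± 0.25 SE, adjusted p = 0.0148). The groups overlapped in both genotypes. Rarb changed by -0.48 ± 0.23 SE, adjusted p = 0.106 in Plin2-null mice, and was at 2.19, 2.85, 2.83, 2.49 and 1.76 CPM in fasted and 4.89, 4.28, 4.44, 3.23 and 3.61 CPM in fed Plin2+/+ livers, with no overlap (-0.76 ± 0.23 SE, adjusted p = 0.0106). Rarb overlaps Top2b on the other strand, which had a median of 2437 counts against 133 for Rarb. The strand setting of the counting is unclear, and the part of Top2b reads in the Rarb values was not tested. Rarg changed by -0.37 ± 0.17 SE, adjusted p = 0.0827 in Plin2-null, and by -0.57 ± 0.17 SE, adjusted p = 0.00836 in Plin2+/+ mice. With the GC trend removed, Rarg was called lower in both genotypes, at -0.50 (adjusted p = 0.00516) in Plin2-null and -0.34 (adjusted p = 0.0438) in Plin2+/+ mice. In Plin2-null mice Rarg was also called lower without fed replicate 5 (adjusted p = 0.0456), and without fasted replicate 5 both Rarg (adjusted p = 0.0417) and Rarb (adjusted p = 0.0235) were. None of the interactions passed, at 0.82 ± 0.35 SE, adjusted p = 0.322 for Rara, 0.28 ± 0.32 SE, adjusted p = 0.703 for Rarb and 0.20 ± 0.23 SE, adjusted p = 0.716 for Rarg. Of 8 tested genes known to respond to retinoic acid receptors, which include Rarb, 1 rose and 4 fell in Plin2-null livers, and none rose and 6 fell in Plin2+/+ livers. Scaled by library size alone, none rose and 5 fell in Plin2-null mice. Cyp26a1, which degrades retinoic acid, changed by -3.08 ± 0.61 in Plin2-null and -3.35 ± 0.64 in Plin2+/+ livers. Tgm2, a transglutaminase, was higher in fasted Plin2-null than in fasted Plin2+/+ livers (0.88 ± 0.14, adjusted p = 0.00494). Retinoids are stored in stellate cells, of whose 13 markers none rose, 4 fell in Plin2-null and 6 in Plin2+/+ mice. Their summed level was 537 to 662 CPM in fasted and 555 to 713 CPM in fed Plin2-null livers, and 549 to 621 and 512 to 897 CPM in fasted and fed Plin2+/+ livers, with none at 0. Their part in the RAR values was not tested.

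Both xenobiotic receptors rose with TMM scaling. Nr1i3 (CAR) was at 565, 611, 389, 602 and 692 CPM in fasted and 423, 278, 328, 509 and 293 CPM in fed Plin2-null livers, which overlapped (0.64 ± 0.18 SE, adjusted p = 0.00886). In Plin2+/+ mice its values were 530.2, 492, 459, 639 and 575 CPM in fasted and 313, 350.1, 401, 203 and 297 CPM in fed livers, without overlap (0.79 ± 0.18 SE, adjusted p = 0.00156). Nr1i2 (PXR) was at 108, 95.6, 109, 106 and 107 CPM in fasted and 70.2, 66.5, 74.3, 67.5 and 68.2 CPM in fed Plin2-null livers, with no overlap (0.60 ± 0.13 SE, adjusted p = 0.000886). With library size alone that fold change was 0.39 (adjusted p = 0.0471). In Plin2+/+ mice Nr1i2 was at 121, 117, 123, 101 and 112 CPM in fasted and 73.3, 73.9, 68.1, 122 and 65.3 CPM in fed livers. Fed replicate 4 stood at the fasted level there, and the other 4 fed libraries lay below every fasted library (0.52 ± 0.13 SE, adjusted p = 0.00256). With library size alone the calls of Nr1i3 in Plin2-null mice (0.46, adjusted p = 0.0965) and Nr1i2 in Plin2+/+ mice (0.36, adjusted p = 0.0644) ended. With limma on TPM those of Nr1i2 in both genotypes and Nr1i3 in Plin2-null mice ended. Of 24 tested CAR and PXR target genes 9 rose and 4 fell in Plin2-null livers, and 9 rose and 5 fell in Plin2+/+ livers. Scaled by library size alone, 6 rose and 6 fell in Plin2-null, and 8 rose and 6 fell in Plin2+/+ livers. Por, the electron donor of cytochromes P450, changed by 2.53 ± 0.22 in Plin2-null and 2.39 ± 0.22 in Plin2+/+ livers, and Cyp2c55, a cytochrome P450, by -3.59 ± 0.52 and -5.02 ± 0.56.

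Among receptors known for constitutive or orphan activity, Hnf4a was at 675, 586, 723, 776 and 537 CPM in fasted and 563, 419, 517, 599 and 597 CPM in fed Plin2-null livers, which overlapped and were not called (0.29 ± 0.12 SE, adjusted p = 0.0705), except without fasted replicate 5 (0.36, adjusted p = 0.0355). In Plin2+/+ livers its values were 842, 875, 874, 728 and 859 CPM in fasted and 677, 641, 589, 601 and 471 CPM in fed mice, without overlap (0.49 ± 0.12 SE, adjusted p = 0.00309). Of 22 HNF4α targets 5 rose and 7 fell in Plin2-null and 6 rose and 9 fell in Plin2+/+ livers, so the list moved in both directions. With library size alone 4 rose and 9 fell in Plin2-null mice. Mttp, which loads lipid onto apolipoprotein B, changed by 1.32 ± 0.12 in Plin2-null and 1.38 ± 0.12 in Plin2+/+ livers. Rora, a receptor of the clock and of lipid metabolism, changed by 0.01 ± 0.15 SE, adjusted p = 0.961 in Plin2-null mice, and was called in Plin2+/+ mice (0.40 ± 0.15 SE, adjusted p = 0.0395). The Plin2+/+ value was 0.22 (adjusted p = 0.188) without fasted replicate 1, and the call also ended without fed replicates 1, 2, 3 and 5 and fasted replicate 2. Of 10 ROR targets 2 rose and 3 fell in each genotype, and with library size alone 1 rose and 3 fell in Plin2+/+ mice. Esrra (ERRα), a regulator of mitochondrial genes, was at 14.1, 13.0, 23.3, 27.0 and 22.4 CPM in fasted and 14.2, 11.1, 13.8, 10.8 and 16.1 CPM in fed Plin2-null livers (0.60 ± 0.21 SE, adjusted p = 0.0332). That call ended without each of 5 libraries in turn, Plin2-null fed replicates 2 and 4 and Plin2-null fasted replicates 3, 4 and 5 (largest adjusted p = 0.102). In Plin2+/+ mice Esrra was not called (0.34 ± 0.21 SE, adjusted p = 0.208). Esrra overlaps Trmt112, which had a median of 325.5 counts against 621 for Esrra, and the part of Trmt112 reads was not tested. Of 9 tested ERR targets, Esrra among them, all 9 rose in Plin2-null and 7 in Plin2+/+ livers and none fell. With limma on log2(TPM + 1) 4 and 3 rose. Nr5a2 (LRH-1), a regulator of bile acid synthesis, Esrrg (ERRγ) and Hnf4g (HNF4γ) were called in neither genotype with TMM scaling. Nr5a2 was called lower in Plin2-null mice with library size alone (-0.47, adjusted p = 0.00852) and with limma on log2(TPM + 1) (-0.53, adjusted p = 0.00855). Of 10 LRH-1 targets 4 rose and 5 fell in Plin2-null and 3 rose and 5 fell in Plin2+/+ livers, and with library size alone 2 rose and 5 fell in Plin2-null livers.

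Of the steroid and thyroid hormone receptors, Esr1 and Nr3c1 fell. Esr1 (ENSMUSG00000019768; chr10:4611593-5005614, plus strand), the oestrogen receptor of liver, was at 31.0, 26.5, 22.1, 19.2 and 27.9 CPM in fasted and 52.8, 65.9, 60.4, 76.6 and 53.5 CPM in fed Plin2-null livers. Its Plin2+/+ values were 27.6, 24.2, 27.0, 18.0 and 22.7 CPM in fasted and 47.6, 58.9, 56.3, 64.1 and 58.2 CPM in fed livers. Fasted libraries lay below every fed library in both genotypes (-1.29 ± 0.14 SE, adjusted p = 2.72e-07 in Plin2-null, and -1.25 ± 0.14 SE, adjusted p = 2.8e-07 in Plin2+/+ mice). Nr3c1 (GR; ENSMUSG00000024431; chr18:39410545-39519421, minus strand) was at 69.3, 61.4, 57.4, 56.7 and 60.1 CPM in fasted and 81.6, 90.1, 103, 101 and 88.2 CPM in fed Plin2-null livers. Its Plin2+/+ values were 75.7, 66.7, 59.9, 66.1 and 56.7 CPM in fasted and 85.5, 85.0, 93.9, 79.1 and 87.4 CPM in fed livers. These groups did not overlap either (-0.60 ± 0.09 SE, adjusted p = 2.83e-05 in Plin2-null, and -0.41 ± 0.09 SE, adjusted p = 0.00128 in Plin2+/+ mice). While the receptor's transcript fell, 14 of 18 glucocorticoid receptor targets rose in Plin2-null and 13 in Plin2+/+ livers, and none fell. On library size alone the counts were 13 and 10. With TMM scaling 18.0% and 20.9% of all genes tested were called higher, and this list too was chosen with earlier results known. Fkbp5, a GR cochaperone, changed by 1.59 ± 0.25 in Plin2-null and 2.16 ± 0.25 in Plin2+/+ livers, and Tdo2, a tryptophan-degrading enzyme, by 1.34 ± 0.18 and 1.73 ± 0.18. In fasted mice Tdo2 was lower in Plin2-null than in Plin2+/+ livers (-0.68 ± 0.18, adjusted p = 0.0438), and no other target of that list was called between genotypes. With TMM scaling, the mineralocorticoid receptor gene Nr3c2 and the thyroid hormone receptor genes Thra and Thrb were not called in the fit over all libraries, with changes on fasting of -0.29 ± 0.23, -0.11 ± 0.18 and -0.32 ± 0.14 in Plin2-null and -0.49 ± 0.23, -0.40 ± 0.18 and -0.18 ± 0.14 in Plin2+/+ livers. In Plin2+/+ mice Nr3c2 was called lower in a fit of the compared groups alone (-0.50, adjusted p = 0.0443). Thra was called lower there without fed replicate 1 (-0.50, adjusted p = 0.0291), fasted replicate 4 (-0.51, adjusted p = 0.0309) or fasted replicate 5 (-0.49, adjusted p = 0.0362). Thra overlaps Nr1d1 on the other strand, which had a median of 493 counts, and the strand setting of the counting is unclear. Of 8 tested thyroid hormone targets 5 rose and 2 fell in each genotype. Thrsp, a lipogenic protein, changed by -2.43 ± 0.41 in Plin2-null and -4.86 ± 0.47 in Plin2+/+ livers, and was higher in fasted Plin2-null than in fasted Plin2+/+ livers (1.96 ± 0.45, adjusted p = 0.03). Between the fasted genotypes Thrsp was the only 1 of the 8 called higher, and 1 was called lower.

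Of the NR2F receptors, which act mostly as repressors, Nr2f2 (COUP-TFII) fell in both genotypes. It was at 30.1, 31.2, 36.9, 29.7 and 31.3 CPM in fasted and 44.9, 37.1, 38.3, 39.6 and 49.0 CPM in fed Plin2-null livers, without overlap (-0.39 ± 0.11 SE, adjusted p = 0.01). In Plin2+/+ mice it was at 30.9, 28.2, 22.6, 38.2 and 28.7 CPM in fasted and 43.7, 41.5, 37.8, 38.4 and 43.9 CPM in fed livers, where 1 fasted library reached the fed range (-0.47 ± 0.11 SE, adjusted p = 0.00217). COUP-TFII is also made in endothelial cells, of whose 12 tested sinusoidal markers 3 rose and 2 fell in Plin2-null and 3 rose and 4 fell in Plin2+/+ livers. On library size alone, 1 rose and 2 fell in Plin2-null livers. Their sums were 514 to 629.7 CPM in fasted and 478 to 649 CPM in fed Plin2-null livers, and 526 to 684 and 552 to 673 CPM in fasted and fed Plin2+/+ livers, with none at 0, and their part in the result was not tested. Nr2f6 (EAR2) changed by -0.23 ± 0.13 SE, adjusted p = 0.192 in Plin2-null livers, and was called lower in Plin2+/+ livers (-0.37 ± 0.13 SE, adjusted p = 0.031). With the GC trend removed the order turned round, with a call at -0.59 (adjusted p = 0.00807) in Plin2-null mice and none at -0.02 (adjusted p = 0.931) in Plin2+/+ mice. The Plin2+/+ call also ended in a fit of the compared groups alone (adjusted p = 0.0788) and without each of 6 libraries, fed replicates 2, 3 and 5 and fasted replicates 1, 2 and 3 (largest adjusted p = 0.130). Nr6a1 (GCNF), known from germ cells, changed by -0.33 ± 0.15 SE, adjusted p = 0.0921 in Plin2-null livers, and fell in Plin2+/+ livers (-0.45 ± 0.15 SE, adjusted p = 0.0191). Without Plin2-null fasted replicate 5 it was called lower in Plin2-null livers too (-0.43, adjusted p = 0.0334). The Plin2+/+ call ended without Plin2+/+ fed replicate 4 (-0.34, adjusted p = 0.0677) and without Plin2+/+ fasted replicate 3. Nr2c2 (TR4, a testicular receptor) was at 30.8 to 39.1 and 24.8 to 45.7 CPM in fasted and fed Plin2-null livers (0.05 ± 0.15 SE, adjusted p = 0.815). In Plin2+/+ mice it was at 62.3, 50.5, 47.4, 45.1 and 42.6 CPM in fasted and 26.3, 29.7, 38.6, 42.8 and 37.2 CPM in fed livers and rose, with overlap (0.51 ± 0.15 SE, adjusted p = 0.00826). Nr2c2 overlaps Mrps25 on the other strand, which had a median of 326.5 counts against 1597.5 for Nr2c2, and the part of Mrps25 reads was not tested. Nr2c1 (TR2) and Nr2f1 (COUP-TFI) were called in neither genotype.

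NR4A receptors are immediate early genes that respond to cyclic AMP and stress, and here 1 library decided the call of Nr4a1 in Plin2-null mice. Nr4a1 (Nur77; ENSMUSG00000023034; chr15:101254269-101274795, plus strand) was at 30.5, 1.401, 1.86, 1.99 and 1.196 CPM in fasted and 0.964, 1.16, 1.41, 1.14 and 0.607 CPM in fed Plin2-null livers. Replicate 1 of the fasted group, at 30.5 CPM, stood far above every other library. With it the log2 fold change was 2.80 ± 0.82 SE, adjusted p = 0.0131, and without it 0.61 (adjusted p = 0.211). In a fit of the compared groups alone the Plin2-null value was 2.80 (adjusted p = 0.0751). In Plin2+/+ mice Nr4a1 was at 2.28, 2.10, 4.75, 1.03 and 1.47 CPM in fasted and 0.739, 1.11, 1.25, 1.83 and 0.690 CPM in fed livers and was not called in the fit over all libraries (1.07 ± 0.81 SE, adjusted p = 0.303). In a fit of the Plin2+/+ libraries alone it was called higher (1.06, adjusted p = 0.0423). Nr4a3 stood highest in the same library, at 0.966, 0.172, 0, 0.0407 and 0.165 CPM in fasted and 0.0657, 0.156, 0.117, 0.0504 and 0.0700 CPM in fed Plin2-null livers. So did Nr4a2, at 1.24, 0.543, 0.544, 0.285 and 0.598 CPM in fasted and 0.482, 0.222, 0.313, 0.151 and 0.350 CPM in fed Plin2-null livers. Nr4a2 changed on fasting by 1.05 ± 0.43 SE, adjusted p = 0.0619 in Plin2-null, and by 0.77 ± 0.43 SE, adjusted p = 0.151 in Plin2+/+ livers. In Plin2-null mice it was called higher with DESeq2 (1.06, adjusted p = 0.0465), with the GC trend removed (1.08, adjusted p = 0.0468), and without fed replicate 1 (adjusted p = 0.0396) or fasted replicate 4 (adjusted p = 0.0291). Nr4a3 was called in no comparison. These are the genes whose promoter windows, printed above, hold 4 TGACG matches each.

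**Figure D4:**
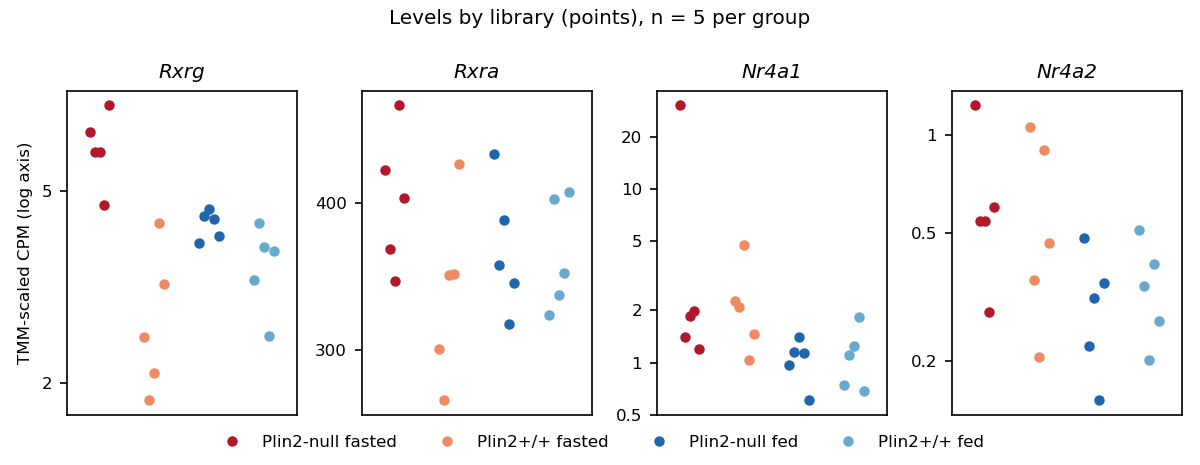
TMM-scaled CPM of Rxrg, Rxra, Nr4a1 and Nr4a2 on log y axes, 1 point per library, 5 per group, with groups from left to right as Plin2-null fasted, Plin2+/+ fasted, Plin2-null fed and Plin2+/+ fed. All 5 fasted Plin2-null points of Rxrg lie above the fasted Plin2+/+ points, and 1 fasted Plin2-null library stands at 30.5 CPM for Nr4a1.

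Among the coregulators, Ppargc1b and Ncor1 rose and Ncoa3 fell in both genotypes. Ppargc1b (ENSMUSG00000033871; chr18:61298136-61400431, minus strand), which coactivates receptors of lipid and mitochondrial genes, was at 6.40, 3.03, 9.91, 9.76 and 4.68 CPM in fasted and 1.75, 3.07, 3.52, 1.97 and 2.10 CPM in fed Plin2-null livers (1.44 ± 0.32 SE, adjusted p = 0.00138). In Plin2+/+ mice it was at 4.11, 3.32, 5.57, 2.36 and 7.95 CPM in fasted and 1.76, 1.97, 1.92, 2.03 and 2.74 CPM in fed livers (1.16 ± 0.32 SE, adjusted p = 0.00593). Its fasted values were more spread than the fed values and overlapped them in both genotypes. Ncor1, the corepressor of unliganded receptors, was at 151, 130.4, 120.4, 148 and 118 CPM in fasted and 119, 93.7, 103, 116 and 113 CPM in fed Plin2-null livers (0.30 ± 0.11 SE, adjusted p = 0.0323). That rise ended without each of 4 libraries, Plin2-null fed replicates 2 and 3 and Plin2-null fasted replicates 1 and 4 (largest adjusted p = 0.0906), and its sign turned on the TPM scale. In Plin2+/+ mice Ncor1 was at 175, 132, 134, 129 and 139 CPM in fasted and 110.0, 103, 105, 97.6 and 87.8 CPM in fed livers, without overlap (0.50 ± 0.11 SE, adjusted p = 0.000654). Ncoa3 (SRC-3) was at 24.9, 23.7, 23.8, 28.3 and 26.5 CPM in fasted and 34.6, 36.0, 34.2, 29.9 and 30.0 CPM in fed Plin2-null livers, without overlap (-0.37 ± 0.09 SE, adjusted p = 0.00344). In Plin2+/+ mice it was at 25.0, 25.2, 26.6, 23.1 and 32.2 CPM in fasted and 31.9, 36.1, 32.8, 34.9 and 32.8 CPM in fed livers, where 1 fasted library reached the fed range (-0.35 ± 0.09 SE, adjusted p = 0.0042). Med1 changed by 0.00 ± 0.12 SE, adjusted p = 0.999 in Plin2-null livers, and rose in Plin2+/+ livers (0.41 ± 0.12 SE, adjusted p = 0.00859). Ncoa2 (SRC-2) fell in Plin2-null livers (-0.23 ± 0.08 SE, adjusted p = 0.0376), a call that ended without each of 8 of the 10 libraries, all but Plin2-null fed replicate 5 and Plin2-null fasted replicate 4 (largest adjusted p = 0.114), and with the GC trend removed (-0.18, adjusted p = 0.0846). In Plin2+/+ livers it changed by -0.04 ± 0.08 SE, adjusted p = 0.725. Ncoa1 (SRC-1) and Nrip1 were called in neither genotype, with changes of 0.06 ± 0.09 and 0.31 ± 0.20 in Plin2-null and 0.15 ± 0.09 and 0.34 ± 0.20 in Plin2+/+ livers.

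Related genes outside the 39 were counted from lists. Of 10 tested of 17 other nuclear receptors, 1 rose and 2 fell in each genotype, and with library size alone none rose and 2 fell. Nr0b2 (SHP), a repressor of other receptors, changed by -0.64 ± 0.24 in Plin2-null and -1.60 ± 0.25 in Plin2+/+ livers. Of 29 other coregulators 4 rose and 2 fell in Plin2-null livers and 5 rose and 5 fell in Plin2+/+ livers. With library size alone these became 1 and 4, and 3 and 6. Ppargc1a (PGC-1α), the fasting coactivator related to Ppargc1b, rose in Plin2+/+ livers (2.58 ± 0.40, adjusted p = 4.43e-05). Its response in Plin2-null livers is not given here. None of the 29 was called for a difference in fasting response between genotypes. In fasted mice 1 of the 29 was called higher and 2 lower in Plin2-null than in Plin2+/+ livers. Ppargc1a was among the lower (-1.52 ± 0.38, adjusted p = 0.0415), and how far that call held in other settings is not given here. Ppargc1b changed by 0.53 ± 0.31 SE, adjusted p = 0.302 in the same comparison.

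Between genotypes few members were called, and few of all genes were. In fed mice none of the 38 was called by edgeR or DESeq2, where edgeR called 0.0184% of all genes, 0.0123% higher and 0.00613% lower. At an unadjusted p under 0.05 there were 694 of the 16312 genes tested and 1 member. It was Pparg, at 2.96, 4.85, 3.73, 3.58 and 3.78 CPM in Plin2-null and 4.40, 4.94, 6.45, 4.31 and 5.36 CPM in Plin2+/+ livers (-0.43 ± 0.16 SE, adjusted p = 1.00). Fed log2 fold changes had a median of 0.03 over the members and 0.00 over all genes. In fasted mice 1 of 38 was called, Rxrg, against 3.24% of all genes, 1.51% higher and 1.73% lower. There 8 members and 3962 of the 16312 genes tested had an unadjusted p under 0.05. Here the median was 0.09 over the members and 0.02 over all genes. DESeq2 called 4 members, adding Rara, Nr2c2 and Med1, and of all genes it called 630 higher and 803 lower. Rara, whose values are given above, had a fasted difference of 0.87 ± 0.25 SE, adjusted p = 0.0554, and of 0.53 with the GC trend removed. It passed without Plin2+/+ fasted replicate 4 (adjusted p = 0.0395) or replicate 5 (adjusted p = 0.0162) and without Plin2-null fasted replicate 2 (adjusted p = 0.0310). Med1, the Mediator subunit that binds receptors, was at 42.6, 40.5, 47.2, 41.1 and 35.5 CPM in fasted Plin2-null and 62.6, 60.5, 57.3, 41.6 and 46.5 CPM in fasted Plin2+/+ livers (-0.38 ± 0.12 SE, adjusted p = 0.0717), and passed without Plin2+/+ fasted replicate 4 (adjusted p = 0.0283) or replicate 5 (adjusted p = 0.0333). For Nr2c2 the fasted difference was -0.45 ± 0.15 SE, adjusted p = 0.0823, it passed without Plin2+/+ fasted replicate 5 (adjusted p = 0.0433), and every fasted Plin2-null library lay below every fasted Plin2+/+ library. Rxrg and Nr2c2 were the 2 members without overlap between fasted genotypes, as were 4.07% of all genes, and no member was without overlap in fed mice, where 0.877% of all genes were.

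**Figure D5:**
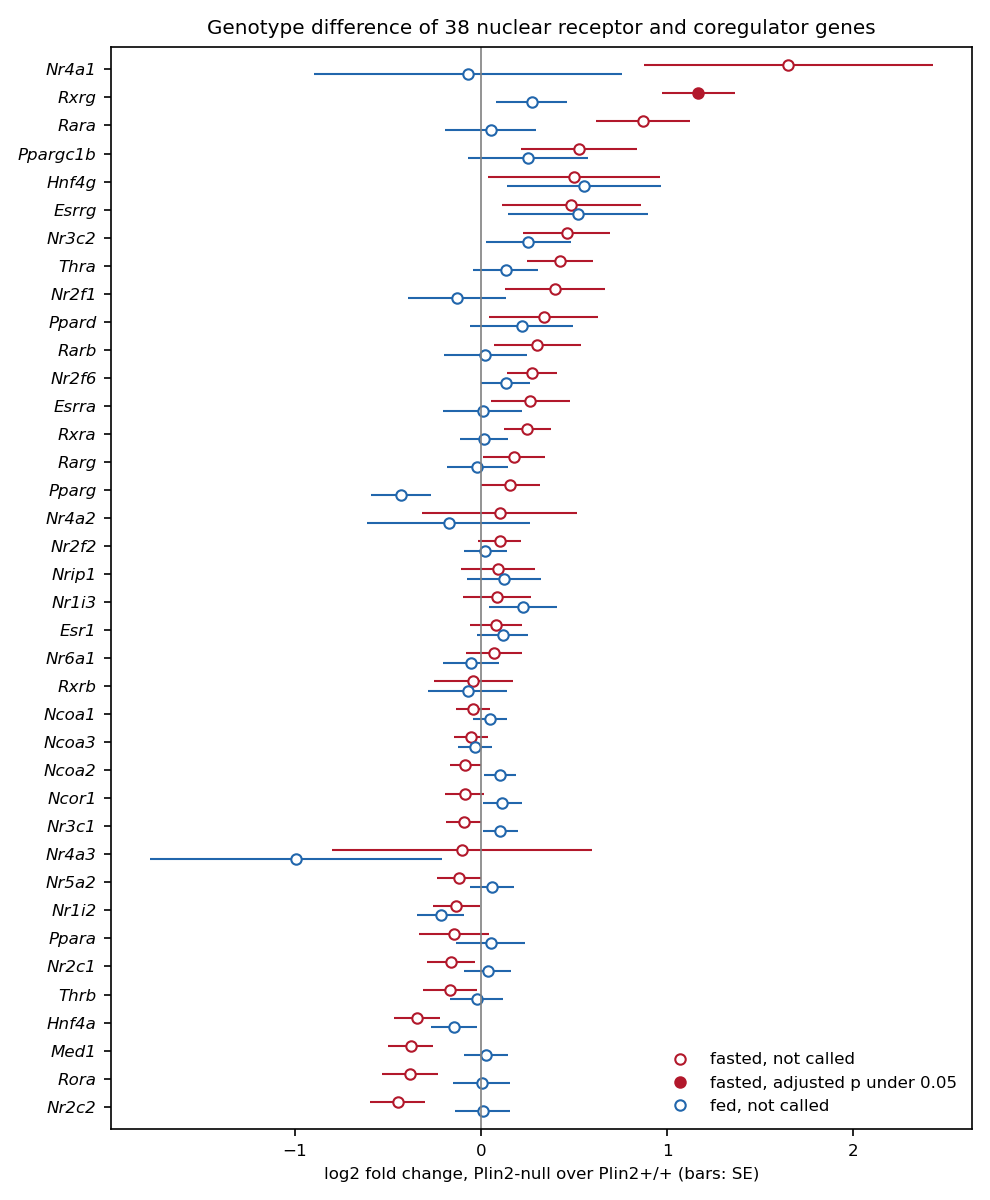
Genotype difference of 38 members as the log2 fold change of Plin2-null over Plin2+/+ livers on the x axis with its SE as bars, in fasted and in fed mice, 5 against 5 libraries each. Rxrg in fasted mice, at 1.17, is the filled point with an adjusted p under 0.05.

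Whether the fasting response itself differed between genotypes was tested by an interaction term, positive where the Plin2-null response was the more positive. None of the 38 members passed in edgeR or DESeq2, where edgeR called 0.0% of all genes, with a smallest adjusted p of 0.0602, and DESeq2 called 63 genes. At an unadjusted p under 0.05 there were 5 members and 2250 genes. Those members were Pparg (0.59 ± 0.23 SE, adjusted p = 0.289), Rxrg and Rara (given above), Nr2c2 (-0.46 ± 0.21 SE, adjusted p = 0.346) and Med1 (-0.41 ± 0.17 SE, adjusted p = 0.307). For the members with the clearest fasting responses the interaction was -0.20 ± 0.27 for Ppara, 0.12 ± 0.40 for Ppard, -0.04 ± 0.19 for Esr1 and -0.20 ± 0.13 for Nr3c1. The 5 calls made only in Plin2-null and the 9 made only in Plin2+/+ mice are therefore not shown to differ between genotypes.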

How the data were processed

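Liver RNA of 20 libraries was column-purified and sequenced as strand-specific mRNA, per the labels' protocols. The submitters' processing notes name HISAT2 1.2.1 and featureCounts 1.4.6-p1. They list the build GRCh38 for mouse gene identifiers, so the build behind the counts is unclear. The annotation and strand setting were not given in the sources used here, and reads shared by overlapping genes cannot be assigned with certainty. Such pairs include Thra and Nr1d1, Rarb and Top2b, Esrra and Trmt112, Ncoa3 and Sulf2, Nr2c2 and Mrps25, Ncor1 and Ttc19, and Nr1i3 and Tomm40l. The authors deposited whole-number counts per gene and TPM values, which are counts per gene length scaled to a common sum. Each of the 20 TPM columns tracked its own library's counts most closely, over 7109 genes. Symbols matched 55141 of 55487 identifiers. Positions are those of GENCODE M21 (GRCm38).

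Counts were analysed with edgeR 4.0.16 in R 4.3.3: filterByExpr, TMM, glmQLFit (robust) over 20 libraries with 1 coefficient per group, and glmQLFTest with Benjamini-Hochberg adjustment over 16312 genes at 0.05. Isotype shares of TPM were tested by exact two-sided permutation. Members, gene lists and tests were chosen with earlier results of these data known. The named genes are all members, Plin2 and at most the 3 genes of each list with the smallest adjusted p in a comparison. Alternatives were DESeq2 1.42.0, RLE factors, library size alone, no filter, a stricter filter (1 CPM in every library of a group), the compared groups alone, removal of each library's GC trend, limma 3.58.1 on log2(TPM + 1) and log2(TPM + 0.1), and leaving out each library. No 2 libraries of a group matched within sampling noise (40 pairs, smallest chi-square per degree of freedom 45.3), so each counted as 1 sample. Total counts of 25506471 to 65579038 set the counting precision. The edgeR fit was also run on counts simulated from the fitted levels and spread, with known folds set in the Plin2+/+ fasted group. That simulation held no GC trend and no library set apart, and its outcome is not given here. Plots were made in Python 3.11.15 (matplotlib 3.10.9).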

Additional observations from a re-analysis of the deposited data

Results flagged for a closer look

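In 16 of 156 groups of 5 libraries, 1 library stood far from the other 4, its gap to the nearest being above 0.71 of the range. Chance gives about 1 in 20 groups, and the libraries are shared between genes. In Plin2-null fasted replicate 1, Nr4a1 was at 30.5 CPM (others 1.196 to 1.99), Nr4a3 at 0.966 (others 0 to 0.172) and Nrip1 at 45.4 (others 25.6 to 31.2). In Plin2+/+ fasted replicate 1, Rora was at 223 CPM (others 124 to 143), Ncor1 at 175 (others 129 to 139) and Nrip1 at 37.7 (others 25.3 to 28.6). In Plin2+/+ fed replicate 4, Nr1i2 was at 122 CPM (others 65.3 to 73.9), Rora at 136 (others 108 to 115) and Esrrg at 0.451 (others 3.05 to 4.07).

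The remaining libraries that stood apart each did so for 1 or 2 genes. Plin2-null fasted replicate 2 had Nr1i2 at 95.6 CPM (others 106 to 109.5) and Nr2c2 at 30.8 (others 37.0 to 39.1), and Plin2-null fasted replicate 3 had Nr2f2 at 36.9 (others 29.7 to 31.3). Hnf4a was at 728 CPM in Plin2+/+ fasted replicate 4 (others 842 to 875), and Nr2c1 at 19.6 in Plin2-null fed replicate 2 (others 12.7 to 14.4). Thra was at 9.71 CPM in Plin2+/+ fed replicate 1 (others 13.7 to 14.8), and Ppargc1b at 2.74 in Plin2+/+ fed replicate 5 (others 1.76 to 2.03).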

How the results depend on the processing

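In fasted mice the count of members called between genotypes, 1 in the report, was 4 with DESeq2 and 2 with the stricter filter, and ran from 1 to 4 with 1 library left out. Rxrg was called in all of these. The cause of the added calls was not tested. For fasting in Plin2+/+ mice, 19 members were called, 12 with limma on log2(TPM + 1), and 17 to 21 with 1 library left out. The rise of Ncor1 in Plin2-null mice reversed to -0.002077 and -0.003672 on log2(TPM + 1) and log2(TPM + 0.1); those settings also moved the median of all genes to -0.18 and -0.28. Over all genes, the count in fasted mice between genotypes was 528, and 1433 with DESeq2, 319 without a filter, 108 with library size alone, 104 on the compared groups, 27 and 39 on TPM and 13 to 1794 with 1 library left out; 13 came without Plin2+/+ fasted replicate 2 and 1794 without Plin2+/+ fasted replicate 5. In fed mice DESeq2 called 7 genes, against 3, and for the interaction DESeq2 called 63, the stricter filter 2 and no filter 1, against 0. No paired analysis was possible because the titles give each library a number of its own. Members at a few counts, such as Vdr, Nr4a3 and Hnf4g, are limited by depth.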
